A study of Mus musculus with 21 samples.

Results

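The genes described here are 44 genes of the cell cycle, chosen by name: 15 that act in DNA replication (S phase) and 29 that act in mitosis (G2 and M phase). They were read from whole tibialis anterior (TA) muscle of mice, with 1 Affymetrix Mouse Gene 1.0 ST array per sample. Of the 44, 43 were measured by a probe set with 1 gene symbol, among 19752 genes in all. The one without such a probe set was Ccnb1, cyclin B1, which is not analysed here. All 15 replication genes and 28 mitosis genes were therefore described, and 38 of the 43 lay above a filter on low signal on at least 2 arrays and entered the tests.

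The study compared male C57BL/6 mice, 8 weeks old, that were Foxp3-DTR+ or Foxp3-DTR-. In such mice the diphtheria toxin receptor (DTR) is placed under the control of Foxp3, the factor that defines regulatory T cells, so that toxin can remove those cells. The study's design text says that both genotypes received cardiotoxin, which destroys muscle fibres and starts their regeneration, in the TA at day 0, and diphtheria toxin every other day until day 4 or day 8. Sample titles split the 21 samples into 9 groups. There were 3 DTR- CTx d4, 2 DTR+ CTx d4, 3 DTR- CTx d8, 3 DTR+ CTx d8, 3 DTR- xINJ d4, 1 DTR+ xINJ d4, 3 DTR- xINJ d8, 2 DTR+ xINJ d8 and 1 DTR+ d0 sample. The titles do not spell out xINJ, and other labels describe these samples as injured too, so the name is used only as a name. The 2 groups with 1 sample entered no comparison. For DTR- xINJ d4 replicate 1 the time tag says day 8 while its title and preparation text say day 4, and it was used at day 4. The labels do not state whether each sample is a different animal. The p-values therefore rest on the variation among samples, which may be technical.

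The median intensity of the arrays ran from 133 to 160. In all 21 samples the mature muscle fibre markers were high, with a mean log2 intensity of 12.50 to 13.58 over 10 genes. Foxp3 itself lay between 6.27 and 6.95 in every sample, with DTR+ and DTR- overlapping in each condition, so that it does not check the genotype labels in whole muscle. DTR- CTx d4 replicate 1 stood apart in having the lowest level of Ckm, the muscle creatine kinase, at 12.52 against 13.37 or more in all other samples. In whole tissue, a greater number of cycling cells and more of the transcript per cell cannot be told apart.

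A cell that enters the cycle first loads the MCM helicase on origins of replication and makes deoxynucleotides, then copies its DNA, and then builds a spindle and divides. Transcription follows that order: the replication genes are classic targets of E2F factors at the G1/S boundary, whereas many mitosis genes carry a promoter element known as the cell cycle genes homology region (CHR), often close to CCAAT boxes, which the MuvB complexes and NF-Y bind. In injured muscle, satellite cells, macrophages, fibroadipogenic progenitors, endothelial cells and lymphocytes can all divide, while fibre nuclei do not.

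The promoters of the members are shown first, since their letters do not depend on the array values. The lists themselves were drawn up by function and not by promoter elements, though with earlier results of these data known. RefSeq promoter windows (GRCm38.p6) of 300 bases, from 250 before to 50 after a transcript start, were at hand for 37 members, 13 replication and 24 mitosis genes, and 3 members had more than 1 window. Both strands were searched for TTTGAA (CHR), for CCAAT, and for 4 E2F words, TTTGGCGC, TTTGCCGC, TTTCGCGC and TTTCCCGC. Stretches of 4 mitosis and 2 replication genes follow, 5′ to 3′ on the gene's strand, with matches in capitals. Mki67 and Cdk1 show CHR and CCAAT together, Top2a shows repeated CCAAT, Cdc20 has a CHR close to the start, and Mcm5 and Mcm6 show E2F words with no CHR. They lie at chr7:135716469-135716569 (Mki67, minus strand), chr10:69352922-69353052 (Cdk1, minus strand), chr11:99024239-99024419 (Top2a, minus strand), chr4:118437353-118437403 (Cdc20, minus strand), chr8:75109349-75109459 (Mcm5, plus strand) and chr1:128359715-128359825 (Mcm6, minus strand), all upstream of the RefSeq start used.
Mki67: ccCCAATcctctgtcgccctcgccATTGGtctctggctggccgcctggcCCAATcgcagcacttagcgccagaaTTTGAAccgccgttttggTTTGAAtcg
Cdk1: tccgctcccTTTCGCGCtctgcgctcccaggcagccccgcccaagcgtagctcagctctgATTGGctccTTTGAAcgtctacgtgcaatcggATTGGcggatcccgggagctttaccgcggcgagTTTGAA
Top2a: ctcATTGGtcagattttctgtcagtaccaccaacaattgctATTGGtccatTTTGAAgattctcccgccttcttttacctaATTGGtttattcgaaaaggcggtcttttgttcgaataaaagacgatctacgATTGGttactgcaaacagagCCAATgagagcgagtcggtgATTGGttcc
Cdc20: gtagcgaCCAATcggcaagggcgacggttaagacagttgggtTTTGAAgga
Mcm5: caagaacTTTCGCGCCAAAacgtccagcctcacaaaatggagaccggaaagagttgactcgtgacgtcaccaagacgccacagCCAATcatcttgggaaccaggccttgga
Mcm6: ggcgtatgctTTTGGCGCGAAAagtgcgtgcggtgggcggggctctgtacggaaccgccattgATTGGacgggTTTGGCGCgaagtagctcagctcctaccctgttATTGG

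In these stretches, ATTGG is CCAAT on the other strand, and the long capital runs of Mcm5 and Mcm6 are 2 E2F words that overlap. A CHR word was found in 18 of 24 mitosis genes (75%) and in 1 of 13 replication genes, Mcm2 (7.69%), against 17.3% of 15483 genes on the array with a window. A CHR and a CCAAT in the same gene's windows were found in 15 of 24 mitosis genes (62.5%), 1 of 13 replication genes and 7.91% of all genes. An E2F word was found in 6 of 13 replication genes (46.2%), namely Mcm3, Mcm5, Mcm6, Mcm7, Cdc6 and Cdt1. It was found in 1 of 24 mitosis genes (4.17%), Cdk1, and in 3.49% of all genes. CCAAT alone set the lists apart less, with 61.5% of replication, 70.8% of mitosis and 41.7% of all genes. A match is a description of letters and shows no binding.

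**Figure D1:**
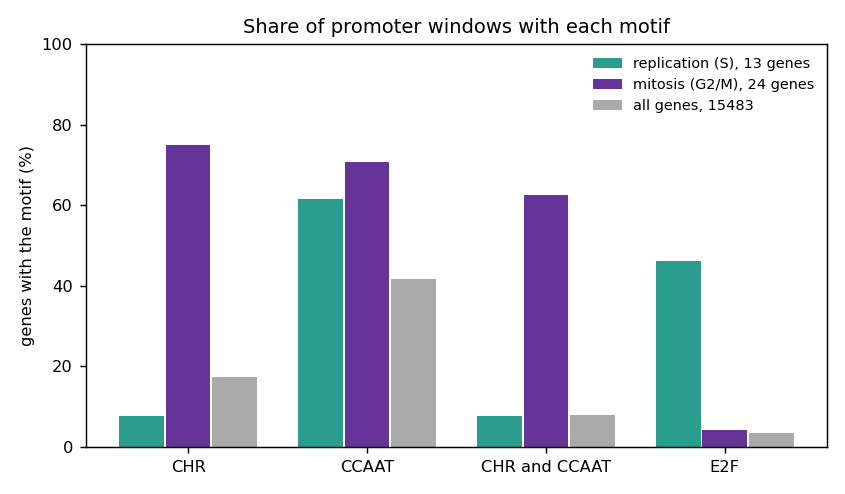
Bars give the percentage of genes whose RefSeq promoter windows hold each motif, for 13 replication genes, 24 mitosis genes and 15483 genes on the array. CHR reaches 75% in the mitosis genes and 7.69% in the replication genes, whereas the E2F words reach 46.2% in the replication genes and 4.17% in the mitosis genes.

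Outside CTx muscle the list means varied little. The mean log2 intensity over the 28 mitosis genes was 5.91 in the day 0 sample and between 5.85 and 6.13 in the 9 xINJ samples. Over the 15 replication genes it was 7.08 at day 0 and between 7.01 and 7.19 in xINJ muscle. Of the tested members, 17 mitosis genes and 3 replication genes rose above the filter level (log2 6.62 to 6.84, the 40th percentile of each array) only on CTx arrays, and 11 members, 8 of them replication genes, lay above it on all arrays. Those 20 genes passed the filter through CTx muscle and had to differ there. For CTx against xINJ muscle, and for the days in CTx muscle, the count without the filter therefore follows. The other counts of members are given with the filter only. A level below the filter is not a detection limit. Between day 4 and day 8 of DTR- xINJ muscle no member passed the test, where 0.0678% of 13278 tested genes did (9 genes, limma). At an unadjusted p under 0.05 the count of members was also 0, where 4.77% of tested genes had such a p.

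**Figure D2:**
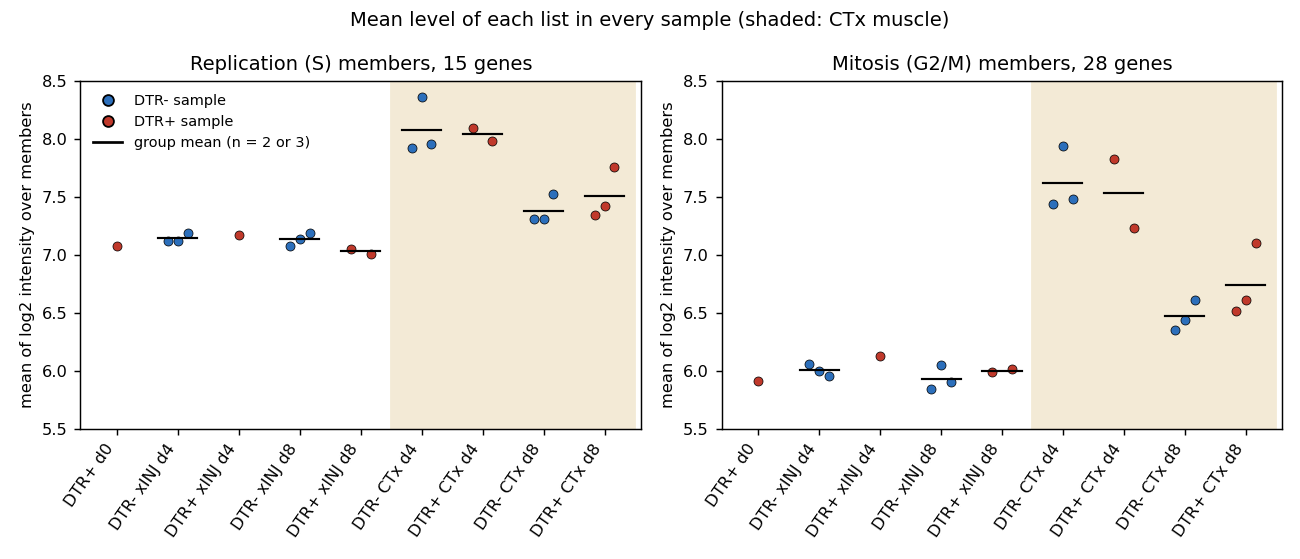
Each point is 1 sample's mean log2 intensity over the 15 replication genes (left) or the 28 mitosis genes (right), by title group, and bars are group means. Both lists are highest in CTx muscle at day 4, intermediate at day 8 and lowest in the day 0 and xINJ samples. DTR+ CTx d8 replicate 3 is the highest of its group in both lists.

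At day 4 in DTR- mice, most members were higher in CTx than in xINJ muscle. Of 38 tested members, 34 were higher and none lower, 11 of 14 replication and 23 of 24 mitosis genes (limma, Benjamini-Hochberg adjusted over all 13278 tested genes, threshold 0.05). Of all tested genes 26.1% were called higher in this comparison and 46.6% in either direction. Without the filter 38 of 43 members were called higher, 12 replication and 26 mitosis genes, against 18.4% of all genes. The median log2 fold change was 1.55 over the 28 mitosis genes and 0.83 over the 15 replication genes, against -0.10 over all 19752 genes. Mitosis genes thus changed more, by 0.72 in the medians, with much spread within each list. Leaving out DTR- CTx d4 replicate 1 and the sample of doubtful day, a setting chosen after the data were seen, gave medians of 1.63 and 0.89. Leaving out DTR- CTx d4 replicate 2, which had the highest list means of its group, lowered them to 1.40 and 0.64.

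Mki67, which encodes the proliferation mark Ki-67, was 6.08, 6.17 and 5.75 in the 3 DTR- xINJ d4 samples and 8.70, 9.01 and 8.80 in the 3 DTR- CTx d4 samples. The groups were far apart, with means of 6.00 ± 0.22 and 8.84 ± 0.16 (SD, n = 3 each). It rose by 2.84 on the log2 scale (SE 0.22, limma adjusted p = 7.25e-09), and since it lay below the filter level on every xINJ array the change is at least 4.42-fold against that level. Top2a, the topoisomerase that untangles chromosomes, was 6.14, 5.53 and 5.66 in xINJ and 8.54, 8.12 and 7.98 in CTx muscle. Its groups did not overlap either, and the change was 2.44 (SE 0.21, limma adjusted p = 3.37e-08), at least 2.87-fold. In all, 18 of the members that passed could be given such a lower bound, from at least 1.14-fold (Kif2c) to at least 5.59-fold (Ccna2). For genes below the level in the dimmer group, the log2 changes given here and at day 8 are fitted values and not exact sizes. Mki67, Top2a, Ccna2, Prc1 and Mcm6 are among the members that entered the test through CTx arrays alone. Their adjusted p-values, and ranks by them, are not independent of that selection.

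The cyclins and the mitotic kinase they activate moved together. Ccna2, cyclin A2, went from 6.44, 6.31 and 5.96 to 9.10, 9.67 and 8.75, a fitted rise of 2.94 (SE 0.29, limma adjusted p = 1.67e-07) that is at least 5.59-fold against the filter level. Cdk1, the kinase that drives entry into mitosis, was 6.69, 6.77 and 7.001 in xINJ and 8.77, 9.31 and 8.46 in CTx muscle, a rise of 2.03. Ccnb2, a B-type cyclin, rose by 2.26. Within the CTx group, replicate 2 was the highest of the 3 for Ccna2, Cdk1 and Ccnb2.

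Spindle, kinase and cytokinesis genes rose with them, Aurka excepted. All 7 genes of motors and the spindle passed, from Kif2c at 1.13 to Kif11 at 2.36, the latter encoding the motor that pushes spindle poles apart. Between them lay Tpx2 (1.45), Nusap1 (1.47), Kif20a (1.55) and Kif23 (1.69). Prc1, which bundles microtubules in the spindle midzone, had the smallest adjusted p of all members, with the limit given above for genes that entered through CTx arrays. Its samples were 5.23, 5.49 and 5.01 against 7.31, 7.56 and 7.21, a fitted rise of 2.11 (SE 0.16, limma adjusted p = 3.66e-09), at least 1.59-fold. Anln and Ect2, which act in the cleavage furrow, rose by 2.52 and 1.82, at least 3.32-fold and 2.35-fold. Of the kinases, Plk1 rose by 2.34, Aurkb by 1.37 and Melk by 0.85, and the checkpoint genes Bub1 and Bub1b by 2.32 and 1.59. Birc5, survivin of the chromosomal passenger complex, was 6.09, 6.13 and 6.31 in xINJ and 7.31, 7.31 and 7.17 in CTx muscle, a fitted rise of 1.09, at least 1.49-fold. Ube2c and Cdc20, which serve the ubiquitin ligase that ends mitosis, rose by 1.13 and 0.67. Cdc20 was 6.92, 7.01 and 7.04 in xINJ and 7.36, 8.25 and 7.39 in CTx muscle, so that replicate 2 carried much of its change.

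Of the kinetochore genes, Cenpf passed with a rise of 1.06, while Cenpe, Ndc80, Nuf2 and the checkpoint kinase gene Ttk lay below the filter and were not tested. Their fitted changes were 1.56, 0.40, 1.33 and 0.70, and without the filter Cenpe, Nuf2 and Ttk passed and Ndc80 had an adjusted p of 0.0805. The mitosis gene that was tested and did not pass was Aurka, the kinase of spindle poles. It was 7.41, 7.44 and 7.45 in xINJ muscle and 7.49, 7.98 and 7.28 in CTx muscle, with overlapping groups and a change of 0.15 (95% interval -0.23 to 0.54, limma adjusted p = 0.517).

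Among the replication genes, the changes spanned a wide range. Rrm2, the small subunit of ribonucleotide reductase, led with 6.53, 6.72 and 6.29 in xINJ and 8.54, 9.75 and 9.18 in CTx muscle, a rise of 2.64 (SE 0.24, limma adjusted p = 6.84e-08). Its partner Rrm1, the large subunit, was 9.36, 9.02 and 9.50 against 9.33, 9.69 and 9.21. The Rrm1 groups overlapped, and the change was 0.12 (95% interval -0.26 to 0.49, limma adjusted p = 0.613). Tyms, thymidylate synthase, rose by 1.58, from 6.02, 5.97 and 6.15 to 7.50, 7.92 and 7.46, at least 1.91-fold. Tk1, thymidine kinase 1, was 7.21, 7.65 and 7.61 in xINJ and 7.84, 8.40 and 8.20 in CTx muscle, a rise of 0.65, and its other probe set gave 0.60.

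Of the 6 MCM genes, which encode the subunits of the replicative helicase, 5 rose. Mcm6 moved most, from 6.62, 6.49 and 6.69 to 8.49, 8.60 and 8.26, a fitted rise of 1.85 (SE 0.20, limma adjusted p = 3.88e-07), at least 3.39-fold. Mcm4 rose by 1.13, Mcm3 by 0.93, Mcm5 by 0.85 and Mcm7 by 0.81. The Mcm5 samples were 6.86, 7.07 and 7.10 in xINJ and 7.62, 8.28 and 7.68 in CTx muscle. Mcm2 was 7.58, 7.62 and 7.90 against 7.80, 8.60 and 7.76, with overlapping groups, a change of 0.36 and an adjusted p of 0.156 in limma. Pcna, the sliding clamp that holds polymerases on DNA, was 9.37, 9.13 and 9.03 in xINJ and 10.38, 10.29 and 10.12 in CTx muscle, a rise of 1.08, with 1.09 from its other probe set.

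The genes of the G1/S switch and of origin licensing were E2f1, Cdt1, Cdc6 and Ccne2. E2f1, an activating E2F factor, rose by 0.83, from 6.59, 6.40 and 6.83 to 7.42, 7.40 and 7.49. Cdt1, which loads the helicase at origins, rose by 0.73, from 7.18, 7.35 and 7.26 to 7.70, 8.44 and 7.85, while its partner Cdc6 lay below the filter with a fitted change of 0.46 that passed without the filter (limma adjusted p = 0.0481). Ccne2, cyclin E2, was 7.12, 6.79 and 6.37 in xINJ and 6.93, 6.80 and 6.54 in CTx muscle. The Ccne2 groups covered the same range, and the change was 0.00 (95% interval -0.45 to 0.45, limma adjusted p = 0.997). Ccne1, the other cyclin E, belongs to the G1 list and rose by 1.18 (limma adjusted p = 7.1e-05), named after its value was seen.

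**Figure D3:**
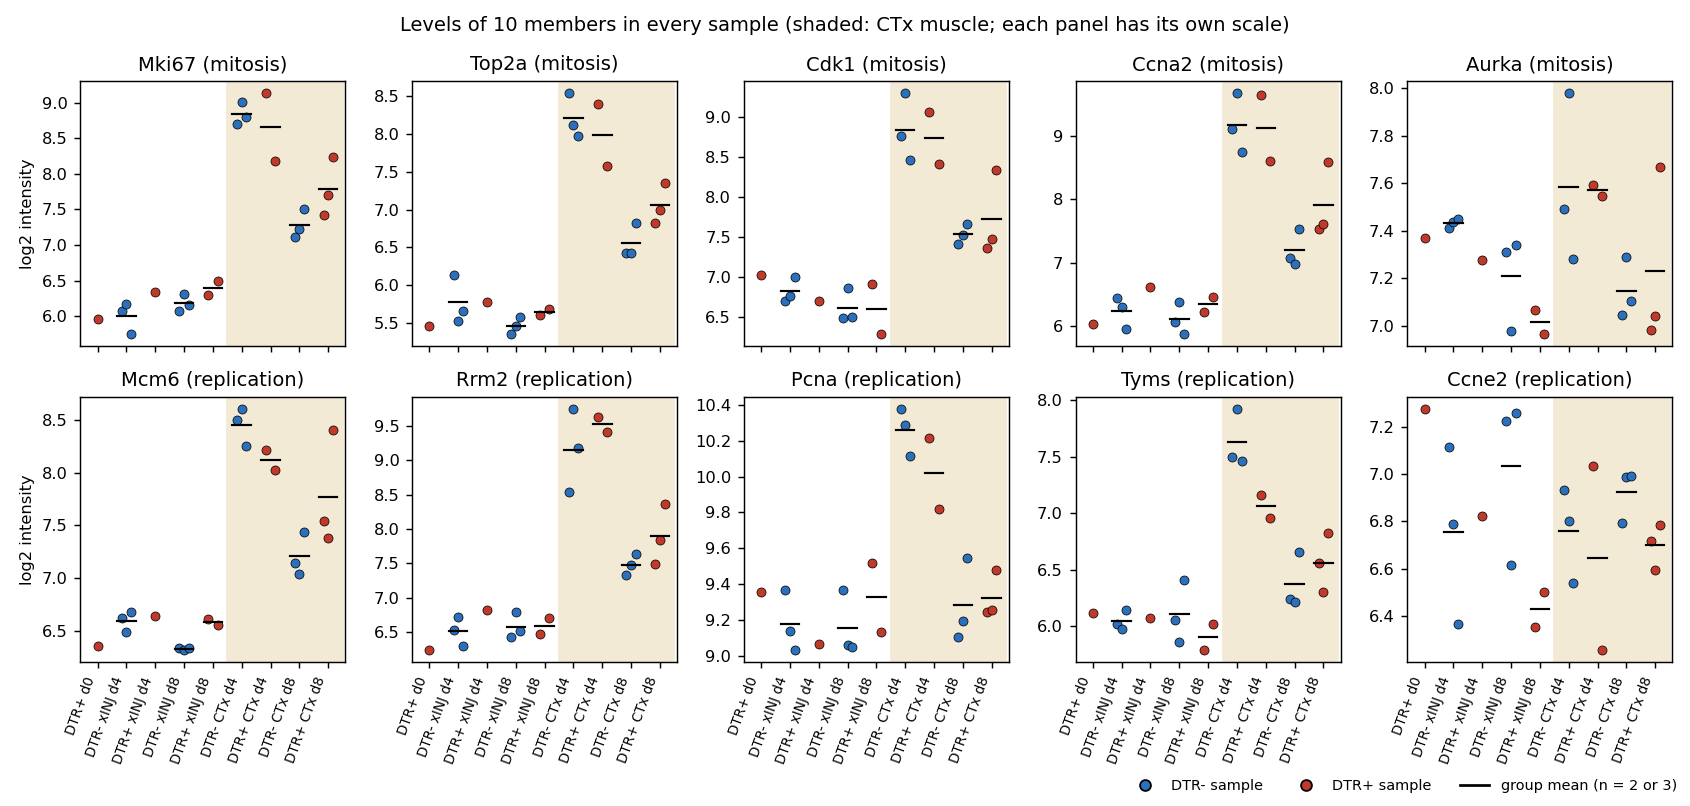
Each panel gives 1 member's log2 intensity in every sample by title group, with group means as bars, for 5 mitosis and 5 replication genes. Mki67, Top2a, Cdk1, Ccna2, Mcm6, Rrm2, Pcna and Tyms are highest in CTx muscle at day 4, while in Aurka and Ccne2 the CTx and xINJ samples overlap.

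Set beside the promoter words, the 18 mitosis genes with a CHR had a median change of 1.75 and the 6 without one 1.40. The 6 replication genes with an E2F word had a median of 0.83, as did the 7 without. The ranges overlapped widely in both pairs, since Aurka with 0.15 has a CHR and Rrm2 with 2.64 has no E2F word in its window. These values describe the members and were not tested.

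Other genes of the pathway, from lists by function, were called in the same comparison as follows. They are to be read against the 26.1% of all tested genes called higher and 46.6% called either way. A gene can pass the filter through CTx arrays alone, which favours a higher call among tested genes. That holds for the lists of the next paragraph too. Before the filter, the lists given here held 53, 32, 10 and 15 measured genes, in the order named. Of 37 tested genes of kinetochore, condensin and spindle outside the 44, 35 were higher and 1 was lower. Stmn1 (2.03), Ncapg2 (1.93) and Racgap1 (1.55) had the smallest p-values. The gene that fell was Pttg1, securin, by 1.05, named after its value was seen. Of 26 tested genes of forks, origins and polymerases 14 were higher and 2 lower, with Dbf4 (1.58), Prim1 (1.41) and Prim2 (1.07) in front. Of 9 G1 cyclins, their kinases and Cdc25 phosphatases 7 were higher, Cdk6 by 2.29 and Ccnd1 by 1.53, whereas Ccnd2 changed by -0.04 and did not pass. Of 6 genes of recombination and damage response 4 were higher, led by Atad2 (1.38).

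Among the E2F, MuvB and FoxM1 factors 3 of 14 tested genes were higher and 3 lower, a share near that of all tested genes. E2f8, a repressive E2F factor that is itself an E2F target, rose by 3.39 (SE 0.25, limma adjusted p = 4.3e-09), from 6.09, 6.32 and 6.27 to 9.05, 10.18 and 9.63. Foxm1, the activator of mitosis genes, rose by 1.64. E2f6 fell by 1.75. Mybl2 (0.19) and E2f7 (0.33) did not pass. Among 9 tested inhibitors and pocket proteins 4 were higher and 1 lower. Cdkn1c, the inhibitor p57, rose by 2.24 and Rbl1, the pocket protein p107, by 1.15, while Rbl2, the pocket protein p130 of resting cells, fell by 0.76. Gmnn, geminin, lay below the filter.

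Markers of several cell types moved in the same samples. Their counts are among tested genes, of which 26.1% in all were called higher and 46.6% called either way. The pan macrophage list went from a mean of 7.43 to 7.86 in DTR- xINJ d4 to 10.98 to 11.47 in DTR- CTx d4, with 10 of 10 tested genes higher. The myogenic list went from 8.19 to 8.66 to 10.68 to 10.97, with 10 of 11 higher. The mature muscle fibre list went from 13.50 to 13.58 to 12.50 to 13.02, with 8 of 10 lower, and 5 of 7 endothelial genes were lower. Of the fibroadipogenic progenitor list 5 of 8 were higher, of the NK and cytotoxic list 4 of 5, of the T cell list 1 of 8, of the neutrophil list 1 of 2 and of the B cell list 1 of 1, and 2 of 2 erythroid genes were lower. Before the filter the last 5 of these lists held 7, 9, 6, 4 and 3 measured genes. Here too a gene can pass the filter through CTx arrays alone, which favours a higher call. The B cell list mean was 5.89 to 6.00 in DTR- xINJ d4 and 5.83 to 6.27 in DTR- CTx d4. The part of these cells in the rise of the cell cycle genes was not tested.

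From day 4 to day 8 the members fell back in DTR- CTx muscle. Of 38 tested members 32 were lower and none higher, 10 of 14 replication and 22 of 24 mitosis genes, against 18% of all tested genes called lower and 29.7% called either way. Without the filter it was 34 of 43, against 12.1% of all genes. The median change was -1.20 over the mitosis genes and -0.68 over the replication genes, against 0.08 over all genes. This comparison shares the day 4 samples with the one above, so the genes with high day 4 values enter both. Ccna2 fell by 1.97 to 7.08, 6.98 and 7.54, Plk1 by 1.69 and Rrm2 by 1.67, to 7.33, 7.47 and 7.64. Prc1 had the smallest adjusted p (1.67e-06 in limma) with a fall of 1.52. Pcna was 9.11, 9.19 and 9.54 at day 8, a fall of 0.98, against 9.03 to 9.52 in the 9 xINJ samples. The tested members that did not pass were Ube2c (-0.51), E2f1 (-0.51), Aurka (-0.44), Mcm2 (-0.38), Rrm1 (-0.28) and Ccne2 (0.17).

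**Figure D4:**
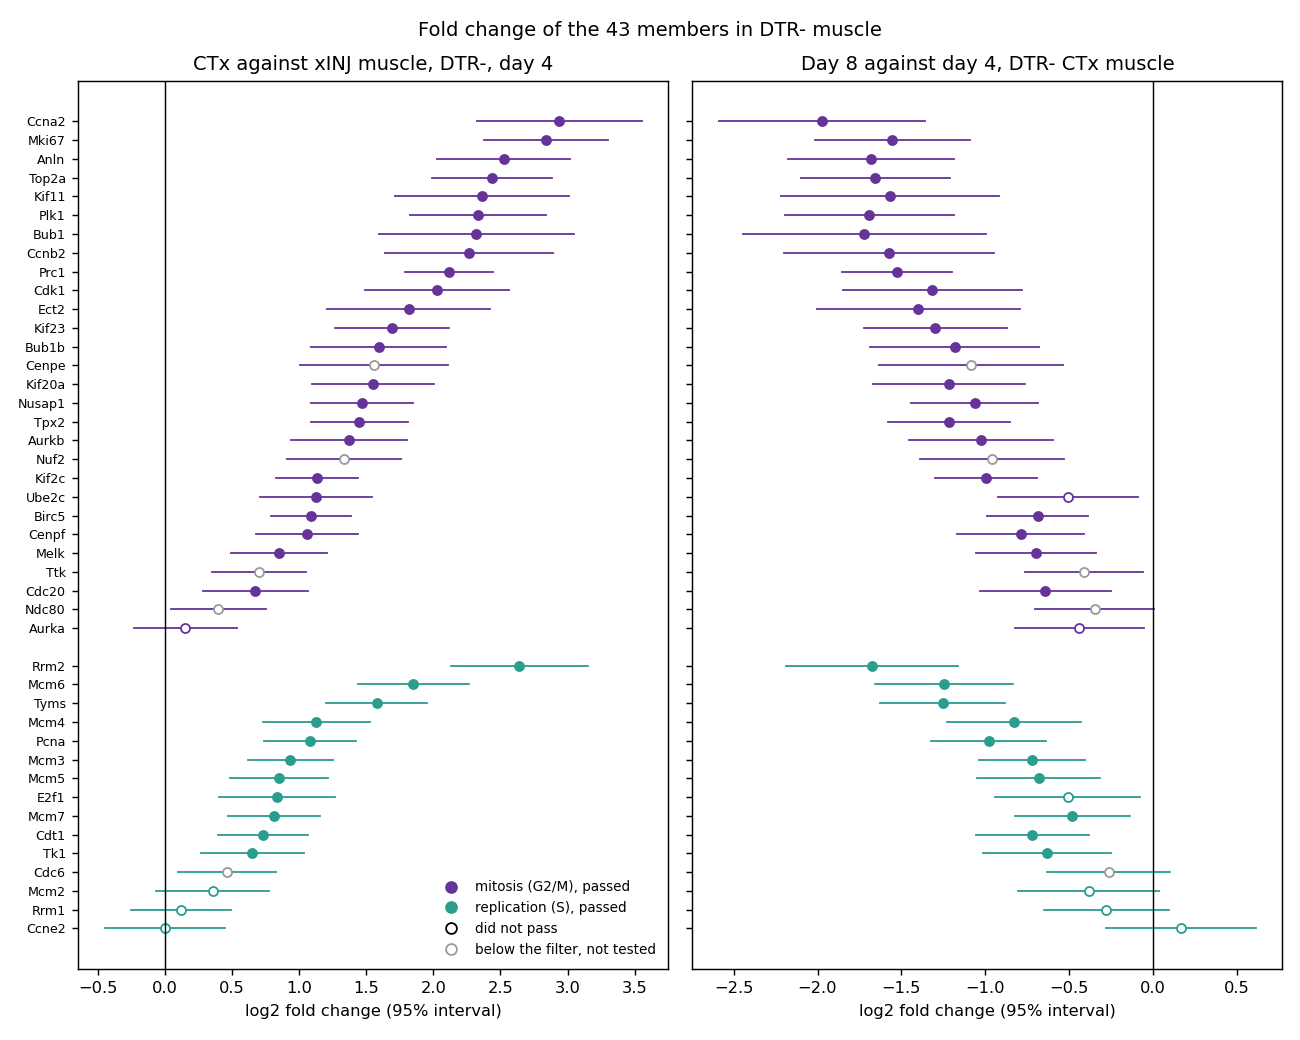
Points are log2 fold changes of the 43 members with 95% intervals, on the left CTx over xINJ muscle at day 4 and on the right day 8 over day 4 in CTx muscle, both in DTR- mice. Filled points passed the test, white points with a coloured rim did not, and those with a grey rim were below the filter. Ccna2 lies farthest out on both sides, and Ccne2 lies at 0.00 on the left and 0.17 on the right.

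At day 8 some of the rise was still present in DTR- mice. Of 38 tested members 10 were higher in CTx than in xINJ muscle and none lower, 8 mitosis and 2 replication genes, against 10.4% of all tested genes called higher and 13.5% called either way. Without the filter it was 9 of 43, against 6.86% of all genes. They were Prc1 (0.91), Top2a (1.10), Mki67 (1.10), Ccna2 (1.09), Cdk1 (0.92), Ccnb2 (1.01), Kif11 (1.00), Plk1 (0.76), Mcm6 (0.87) and Rrm2 (0.90). Mki67 was 6.07, 6.31 and 6.16 in xINJ and 7.11, 7.23 and 7.51 in CTx muscle, with no overlap (limma adjusted p = 0.0019). Mcm6 was 6.34, 6.32 and 6.35 against 7.15, 7.04 and 7.43. The medians were 0.55 over the mitosis genes, 0.15 over the replication genes and -0.03 over all genes. The replication median was smaller in other settings, 0.07 with arrays centred on their median, 0.06 after quantile normalization and 0.09 without CTx replicate 3. The count rested on single samples: it was 4 without CTx replicate 3, 4 without xINJ replicate 1, 4 without xINJ replicate 3 and 6 without CTx replicate 2.

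In DTR+ mice at day 8, 19 of 38 tested members were higher in CTx than in xINJ muscle and none lower, 15 mitosis and 4 replication genes, against 16.7% of all tested genes called higher and 25.3% called either way. Without the filter it was 16 of 43, against 11.2% of all genes. The medians were 0.69 and 0.38, against -0.01 over all genes. Top2a was 5.60 and 5.69 in xINJ and 6.83, 6.99 and 7.35 in CTx muscle, a rise of 1.41 (limma adjusted p = 0.000222). Ccna2 rose by 1.56, Mki67 by 1.39, Rrm2 by 1.31 and Mcm6 by 1.18, while Pcna, at 9.52 and 9.13 against 9.24, 9.25 and 9.48, had a change of 0.00. The count was 11 without CTx replicate 3 and 10 without either xINJ sample. A larger count here than in DTR- mice does not show a difference between the genotypes: that difference, tested as such below, was passed by no member.

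The fall from day 4 to day 8 was also seen in DTR+ CTx muscle, in 16 of 38 tested members, 13 mitosis and 3 replication genes, with none higher. Of all tested genes 8.24% were called lower and 11.1% either way. Without the filter it was 16 of 43, against 5.25% of all genes. The medians were -0.81 and -0.51, against 0.05 over all genes. Ccnb2 fell by 1.73, from 9.81 and 9.24 to 7.64, 7.81 and 7.93, and Rrm2 by 1.62, from 9.63 and 9.41 to 7.49, 7.85 and 8.36. Mki67 was called lower by 0.87 although its groups overlapped, at 9.13 and 8.19 against 7.42, 7.71 and 8.23. Birc5, at 7.16 and 6.80 against 6.98, 6.66 and 7.22, had a change of -0.03. With 2 samples at day 4 the count moved from 5, without DTR+ CTx d4 replicate 2, over 7 without DTR+ CTx d8 replicate 1 and 10 without DTR+ CTx d8 replicate 2, to 24 without DTR+ CTx d8 replicate 3.

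The comparison the study's design points to is DTR+ against DTR- mice, that is, muscle with and without removal of regulatory T cells. At day 4 in CTx muscle no member passed the test for genotype, where 0.00753% of tested genes did (1 gene). The 2 DTR+ samples were far apart, with mitosis list means of 7.82 and 7.24, so this does not show that the genotypes were alike. At an unadjusted p under 0.05 there was 1 member, Tyms, lower in DTR+ by 0.57 (95% interval -0.98 to -0.15), at 7.16 and 6.96 in DTR+ against 7.50, 7.92 and 7.46 in DTR- muscle (limma adjusted p = 1). Of all tested genes 2.06% had such a p. The medians were -0.07 over the mitosis and -0.04 over the replication genes. The 2 DTR+ samples lay on both sides of the DTR- samples for some members: Mki67 was 9.13 and 8.19 in DTR+ and 8.70, 9.01 and 8.80 in DTR- muscle. Without DTR+ CTx d4 replicate 2 the mitosis median was -0.43, without DTR+ CTx d4 replicate 3 it was 0.20, without DTR- CTx d4 replicate 1 it was -0.21 and without DTR- CTx d4 replicate 3 it was -0.17. Without DTR- CTx d4 replicate 2 it was 0.10.

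At day 8 in CTx muscle no member passed the test for genotype either, where 3.68% of tested genes did (489 genes). At an unadjusted p under 0.05 there were 7 members, all higher in DTR+ muscle: Mcm6, Cdt1, Aurkb, Birc5, Ccna2, Top2a and Mki67. Of all tested genes 13.2% had such a p. The smallest adjusted p in limma was 0.154, for Mcm6, which was 7.54, 7.38 and 8.40 in DTR+ and 7.15, 7.04 and 7.43 in DTR- muscle, a difference of 0.57 (95% interval 0.15 to 0.98). Aurkb was 7.66, 7.82 and 8.38 against 7.20, 7.38 and 7.53, with no overlap and a difference of 0.58 (95% interval 0.15 to 1.01). Ccna2 had the largest fitted difference, 0.71 (95% interval 0.09 to 1.32), at 7.54, 7.61 and 8.58 against 7.08, 6.98 and 7.54.

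The fitted difference at day 8 was above 0 for 28 of 28 mitosis genes and 12 of 15 replication genes, from 0.02 for Kif2c to 0.71 for Ccna2, with Rrm1 (-0.31), Ccne2 (-0.22) and Mcm2 (-0.15) below 0. Over all genes in the table it was above 0 for 10077 of 19752. The medians were 0.24 and 0.14, against 0.00 over all genes. Members vary together across samples, and one sample carried much of this: DTR+ CTx d8 replicate 3 had list means of 7.11 (mitosis) and 7.75 (replication), against 6.52 and 6.61, and 7.35 and 7.42, in the other DTR+ samples. Without it the medians were 0.07 and -0.01, and 19 of 28 mitosis genes and 7 of 15 replication genes were above 0. Without any single other sample of the 6, at least 26 of 28 mitosis genes were above 0. With samples weighted by their quality (arrayWeights) it was 20 of 28 and 9 of 15, with medians of 0.13 and 0.05. With arrays centred on their median it was 27 of 28 and 10 of 15.

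**Figure D5:**
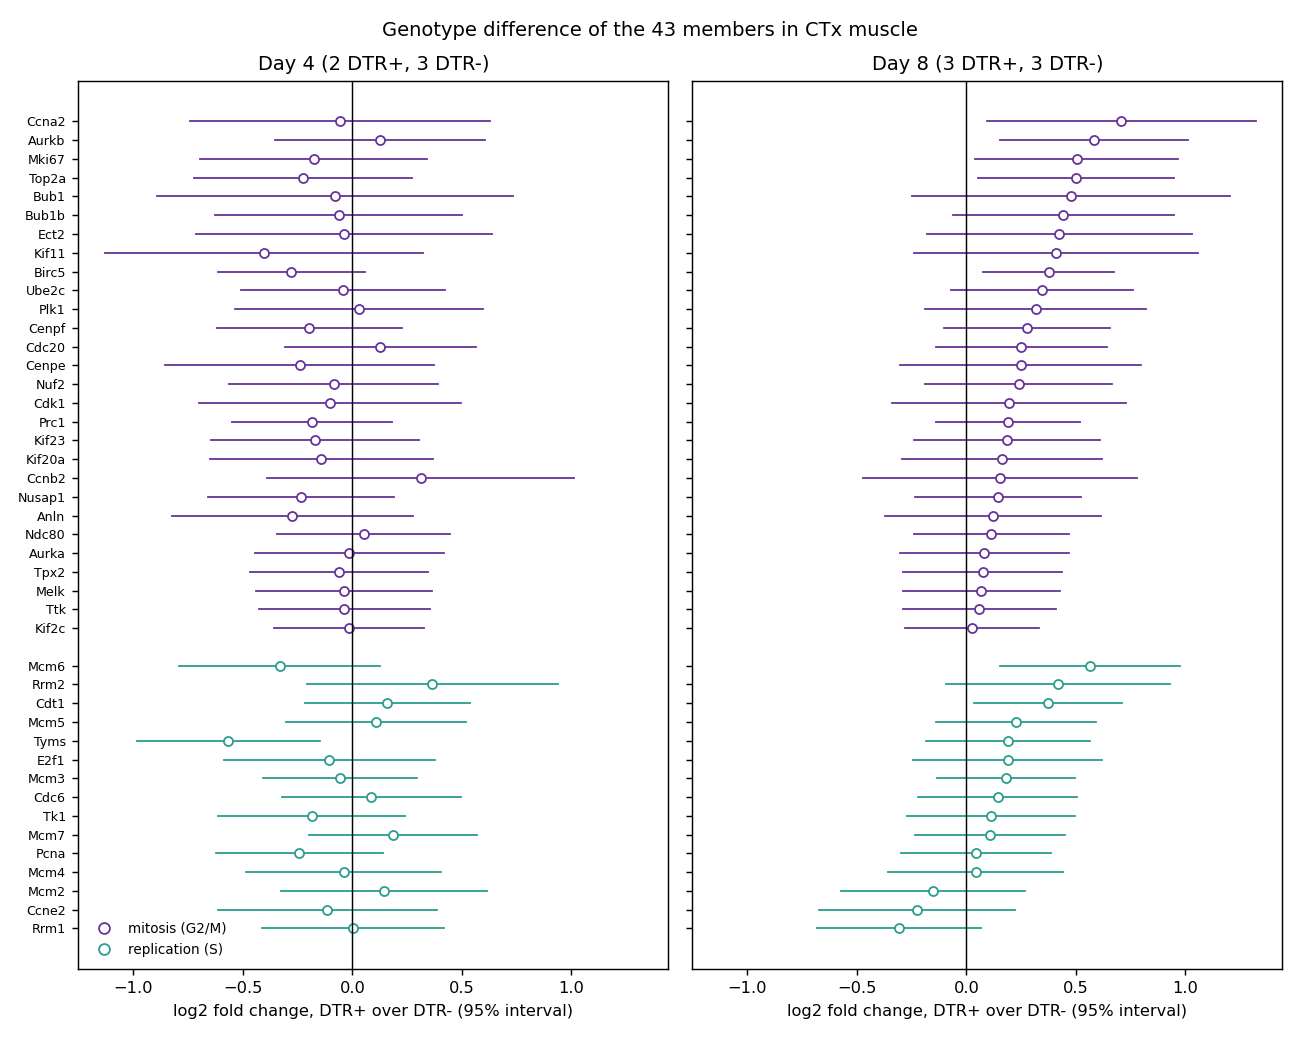
Points are log2 differences of DTR+ over DTR- CTx muscle with 95% intervals for the 43 members, at day 4 (left) and day 8 (right). None of the 38 tested passed on either day. At day 8 all 28 mitosis genes lie to the right of 0, from 0.02 to 0.71. It was 27 with arrays centred on their median, 20 with arrayWeights and 19 without DTR+ CTx d8 replicate 3.

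Outside the 44, genes of the same pathway that did pass for genotype at day 8 in CTx muscle were 3 of 37 tested mitosis genes, all higher in DTR+, where 3.68% of all tested genes passed. Hmgb2, a chromatin protein, was 7.53, 7.71 and 7.82 against 6.78, 6.72 and 7.22, a difference of 0.78 (SE 0.19, limma adjusted p = 0.0223). Incenp, the scaffold of the chromosomal passenger complex, differed by 0.53 (adjusted p = 0.0281) and Stmn1, stathmin, by 0.59 (adjusted p = 0.0372). Of the tested genes of forks and polymerases, G1 cyclins, inhibitors, E2F and MuvB factors and damage response, none passed. The numbers tested in these lists are those given above for CTx against xINJ muscle. Over the mitosis list and these lists together, the share that passed was not above that of all tested genes.

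Markers of immune cells were higher in the same DTR+ CTx d8 samples. The counts below are among tested genes, of which 3.68% in all passed, in either direction. A gene can pass the filter through DTR+ CTx arrays alone, which favours a higher call among tested genes. Before the filter the T cell, pan macrophage, NK and cytotoxic and neutrophil lists held 9, 10, 7 and 6 measured genes. The T cell list had means of 7.25 to 7.93 in DTR+ and 6.33 to 6.55 in DTR- muscle, and 8 of 8 tested genes were higher, among them Cd8a (1.61) and Cd3g (2.14). The pan macrophage list was at 10.01 to 10.08 against 9.20 to 9.37, with 5 of 10 higher, and 3 of 5 NK and cytotoxic genes were higher. Of the other lists 1 of 11 myogenic genes (Myog, 1.06) and 1 of 2 neutrophil genes were higher, 1 of 8 fibroadipogenic progenitor genes (Lum, -1.21) and 2 of 7 endothelial genes were lower, and none of the B cell, erythroid or mature fibre genes passed. In replicate 3 the mature fibre mean was 13.19, against 13.49 and 13.51 in the other DTR+ samples, and the myogenic mean 10.16 against 9.77 and 9.87. The part of these cells in the values of the cell cycle genes was not tested.

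In xINJ muscle at day 8 no member passed for genotype, where 2.61% of tested genes did. At an unadjusted p under 0.05 Prc1 was higher in DTR+ by 0.42, and Rrm1 and Ccne2 were lower by 0.56 and 0.61 (-0.56 and -0.61), where 12.4% of tested genes had such a p. Rrm1 was 8.82 and 8.45 in DTR+ and 9.49, 8.80 and 9.30 in DTR- muscle, with overlap (limma adjusted p = 0.189). Rbl2, of the pocket protein list, passed, at 10.75 and 10.59 against 9.97, 9.95 and 9.76, a difference of 0.78 (SE 0.16, limma adjusted p = 0.00955).

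Whether the genotype difference itself changed was tested with interaction terms. Between the days in CTx muscle no member passed, where 0.587% of tested genes did. The smallest adjusted p in limma was 0.205, for Mcm6, whose genotype difference was 0.90 higher at day 8 than at day 4, and at an unadjusted p under 0.05 there were 4 members, 2 from each list, all with a positive term, where 10.4% of tested genes had such a p. Between CTx and xINJ muscle at day 8 no member passed either, where 0.233% of tested genes did, and none had an unadjusted p under 0.05, where 6.5% of tested genes did.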

How the data were processed

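The deposited value table holds linear intensities of 24922 probe sets in 21 samples. Per the submitters' processing notes the authors used Affymetrix Power Tools and RMA, with no version named there. Intensities were turned to log2, with no further scaling. Probe sets were named through the platform annotation: 21425 had 1 symbol, 1399 several and 2098 none listed, and per gene the probe set with the highest mean was kept. Genes above the 40th percentile of their array on at least 2 arrays were tested (13278 of 19752). A mean per title group was fitted to all 21 samples with limma 3.58.1 (R 4.3.3), with 11 contrasts, two-sided, Benjamini-Hochberg within a contrast, threshold 0.05. The fit was tested on simulated data. Where a gene lay below the filter level on every array of the dimmer group, "at least" folds were computed against that level, unless they came under 1. The number of arrays limits the precision. Members and lists were chosen with earlier results of these data known. Named were all members, per pathway list up to 3 genes with the smallest p among those that passed and a fixed few regulators, and per cell type list up to 2. Other settings tried are given in the closing section.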

Additional observations from a re-analysis of the deposited data

How the results depend on the processing

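Direction was followed for a fixed set of members, the members with the smallest p per list and some pathway genes. None of these that passed a comparison turned its direction there under any setting in which it was tested. The calls themselves were less steady. In the settings other than leaving out 1 sample, 33 values lost their call and 37 gained one. Calls were also lost with a sample left out. Fitted values of members that had not passed did change sign. The count of members called at day 4 in DTR- mice (34) was 21 of 23 tested with the filter at the 60th percentile, and the count for day 8 against day 4 in DTR- CTx muscle (32) was then 20 of 23, since fewer genes were tested. These counts stayed at 34, and between 29 and 33, with any 1 sample left out. The count at day 8 was 24 with arrayWeights, 18 with only the groups of the contrast and 4 to 9 with a sample left out in DTR- mice (10 otherwise), and 10 to 20 with a sample left out in DTR+ mice (19 otherwise). For day 8 against day 4 in DTR+ CTx muscle (16) it was 25 with arrayWeights, 9 with only those groups and 5 to 24 with a sample left out. With arrayWeights, whose estimate stopped before it converged, 2 members passed for genotype in CTx muscle at day 8, 2 for genotype in xINJ muscle at day 8 and 7 for day 8 against day 4 in DTR- xINJ muscle (0 otherwise). With a sample left out the count for genotype in xINJ muscle ran from 0 to 1. The causes were not tested.

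The replicate number as a block in the fit, whose pairing the labels do not state, gave 34, 11, 20, 33 and 18 members in the injury and day comparisons (34, 10, 19, 32 and 16 without it) and 0 in all others, so no count moved by over 1.5 times. Same-numbered samples correlated in their deviations from group means with a median of 0.19 (-0.45 to 0.71), with 33 of 51 pairs over 0.1, and samples of other numbers with a median of -0.08, with 22 of 103 pairs over 0.1. Same-numbered samples thus deviated together more often, but the labels state no pairing, so the numbers were not taken to pair samples. Over all tested genes the block gave more calls in every comparison but genotype in CTx muscle at day 4. At day 4 in DTR- mice it was 6814 genes against 6190, and for genotype in CTx muscle at day 8 it was 638 against 489. The shares of all genes given above are without the block. What the numbers stand for was not tested.

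The replication median minus the mitosis median moved by more than the pooled SD of 0.12 in these settings. At day 4 in DTR- mice (-0.72) it was -0.55 on log2(value + 16), -0.84 with the sample of doubtful day at day 8 and -0.84 to -0.63 with a sample left out. At day 8 in DTR- mice (-0.40) it was -0.53 after quantile normalization. For day 8 against day 4 it ran from -0.059 to 0.69 with a sample left out in DTR+ CTx muscle (0.31) and was -0.085 in DTR- xINJ muscle with the doubtful sample at day 8 (0.11). For genotype it ran from -0.17 to 0.39 with a sample left out in CTx muscle at day 4 (0.03), and was 0.17 without DTR- CTx d4 replicate 1 and DTR- xINJ d4 replicate 1, a setting added after seeing the data. In xINJ muscle at day 8 (-0.09) it ran from -0.21 to -0.12. For the interaction between days (-0.26) it ran from -0.41 to -0.026, and for that between CTx and xINJ muscle (0.03) it was 0.22 with arrayWeights. Where 1 sample was left in a group, it was assumed to vary like the others. Centring each array on its median shifted all changes by -0.15 to 0.02, by -0.10 at day 4 in DTR- mice. Probe sets near the array's background can understate fold changes, and Ttk, Cenpe, Ndc80, Nuf2 and Cdc6 were left untested by the filter.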
